A study of Drosophila melanogaster with 12 samples.

Results

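The 8 retinal determination genes of Drosophila melanogaster, ey, toy, eya, so, dac, Optix, eyg and toe, were followed in all 12 libraries of a study of larval salivary glands and wing imaginal discs. They were taken by name, without regard to any measured value, and each of the 8 is among the 17807 gene IDs of the count tables. Polyadenylated RNA had been sequenced from whole tissue of L3 larvae kept at 25 °C, with 25 glands or 25 pairs of discs in a library. The groups are glands labelled egg_1473; Su(var)3-9_06, Oregon R control glands, discs labelled egg_1473; Su(var)3-9_06 and Oregon R control discs, with 3 libraries in each. The study asks how a tissue's transcripts differ when the H3K9 methyltransferases egg (SetDB1) and Su(var)3-9 are both mutated.

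The retinal determination genes encode nuclear factors that together commit cells of the eye-antennal disc to an eye fate. In that disc the Pax6 proteins encoded by toy and ey switch on eya and so, whose products act as a complex, and dac acts with them further along, while Optix encodes a second homeodomain protein of the same family as so and eyg and toe encode a pair of related Pax proteins that serve eye growth. Neither tissue sampled here makes an eye: the wing disc gives rise to the wing and notum, in whose patterning eyg and Optix also act, and eyg is also needed for salivary duct formation in the embryo.

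Totals were 17418224 to 57591665 gene counts in glands and 19781382 to 28136399 in discs, and the 20 most abundant genes held 40.7% to 46.0% of gland counts and 10.02% to 12.3% of disc counts. Levels are normalized CPM (counts relative to library size, scaled by TMM factors within a tissue), with mean ± SD over n = 3 libraries, and 3 counts, taken as the floor of detection, came to between 0.0531 and 0.154 CPM in a library. Intervals and floors cover counting error or spread between libraries only. The labels speak of technical replicates, so p-values may measure no more than technical spread. Su(var)3-9 averaged 81.1 ± 27.1 CPM in mutant-labelled glands and 2.48 ± 0.431 CPM in control glands, against its label, and 3.98 ± 0.801 CPM in mutant-labelled discs and 25.0 ± 0.600 CPM in control discs. egg averaged 7.30 ± 0.476 and 7.80 ± 2.49 CPM in mutant-labelled and control glands, and 132 ± 6.49 and 136 ± 5.63 CPM in mutant-labelled and control discs. The gland libraries are therefore named by their labels throughout. Salivary gland markers summed to 250263 to 305040 CPM in glands and 3498 to 5551 CPM in discs, and wing disc markers to 47.7 to 86.0 CPM in glands and 2253 to 2776 CPM in discs, so each tissue carried its labelled markers.

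In wing discs, eya, dac, so, eyg and toy were lower in the mutant-labelled libraries, and none was called higher. eya fell most among the members with over 10 CPM, 1.81-fold, followed by dac at 1.44-fold, so at 1.39-fold and eyg at 1.30-fold. The other three, Optix, toe and ey, did not pass the test. All 8 members passed the filter on low counts, 5 of 8 (62.5%) were called lower and 0 were called higher at an adjusted p under 0.05 (edgeR's quasi-likelihood test with Benjamini-Hochberg adjustment). Of the 9379 genes tested in discs, 31.3% were called, 15.2% as lower and 16.0% as higher. toy counts among the 5 although it had passed the filter through its control libraries alone. At an unadjusted p under 0.05 the count was also 5, and DESeq2 and limma-voom each called 5, all of them lower. The median log2 change of the 8 members was -0.50, beside 0.00016 for all genes tested. The same 5 members were those whose mutant-labelled and control disc libraries did not overlap, and 47.4% of all genes tested did not overlap, 23.2% with the mutant-labelled group lower.

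eya encodes a transcriptional coactivator that is also a tyrosine phosphatase and works as the partner of so. Its levels were 18.6, 20.6 and 23.9 CPM in mutant-labelled discs, against 37.2, 40.3 and 36.9 CPM in control discs. Every mutant-labelled disc library lay well below every control library, and the groups did not overlap. The log2 change was -0.86 ± 0.10 (SE; 95% interval -1.09 to -0.63, adjusted p = 0.000179).

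so encodes the homeodomain protein that binds DNA in the complex with eya. It had 12.6, 16.8 and 15.0 CPM in mutant-labelled discs, against 20.9, 22.1 and 19.1 CPM in control discs. The groups lay apart, the highest mutant-labelled library still under the lowest control. This came to a log2 change of -0.48 ± 0.12 (adjusted p = 0.0150). Without disc control library 2, the highest of the controls, the adjusted p was 0.0651 and so was no longer called.

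dac encodes a nuclear protein of the Ski/Sno family that acts with eya and so in eye cells and also patterns the leg. Its levels were 24.2, 25.2 and 30.7 CPM in mutant-labelled discs, against 33.3, 43.2 and 38.8 CPM in control discs. Each mutant-labelled library was below each control library, although the closest pair differed little. On the log2 scale dac changed by -0.52 ± 0.12 (adjusted p = 0.00873).

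Within the libraries, so and dac stood higher relative to eya in mutant-labelled discs. These ratios restate that eya fell more than so or dac, and are not separate evidence of a change. The count ratio of so to eya was 0.708 ± 0.0980 in mutant-labelled discs and 0.542 ± 0.0226 in control discs. The ratio of dac to eya was 1.27 ± 0.0396 in mutant-labelled discs and 1.01 ± 0.0959 in control discs. Neither pair of groups overlapped, and each two-sided exact permutation p was 0.1, the smallest that 3 against 3 allows, with 0.133 after adjustment over the 4 ratios compared.

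**Figure D1:**
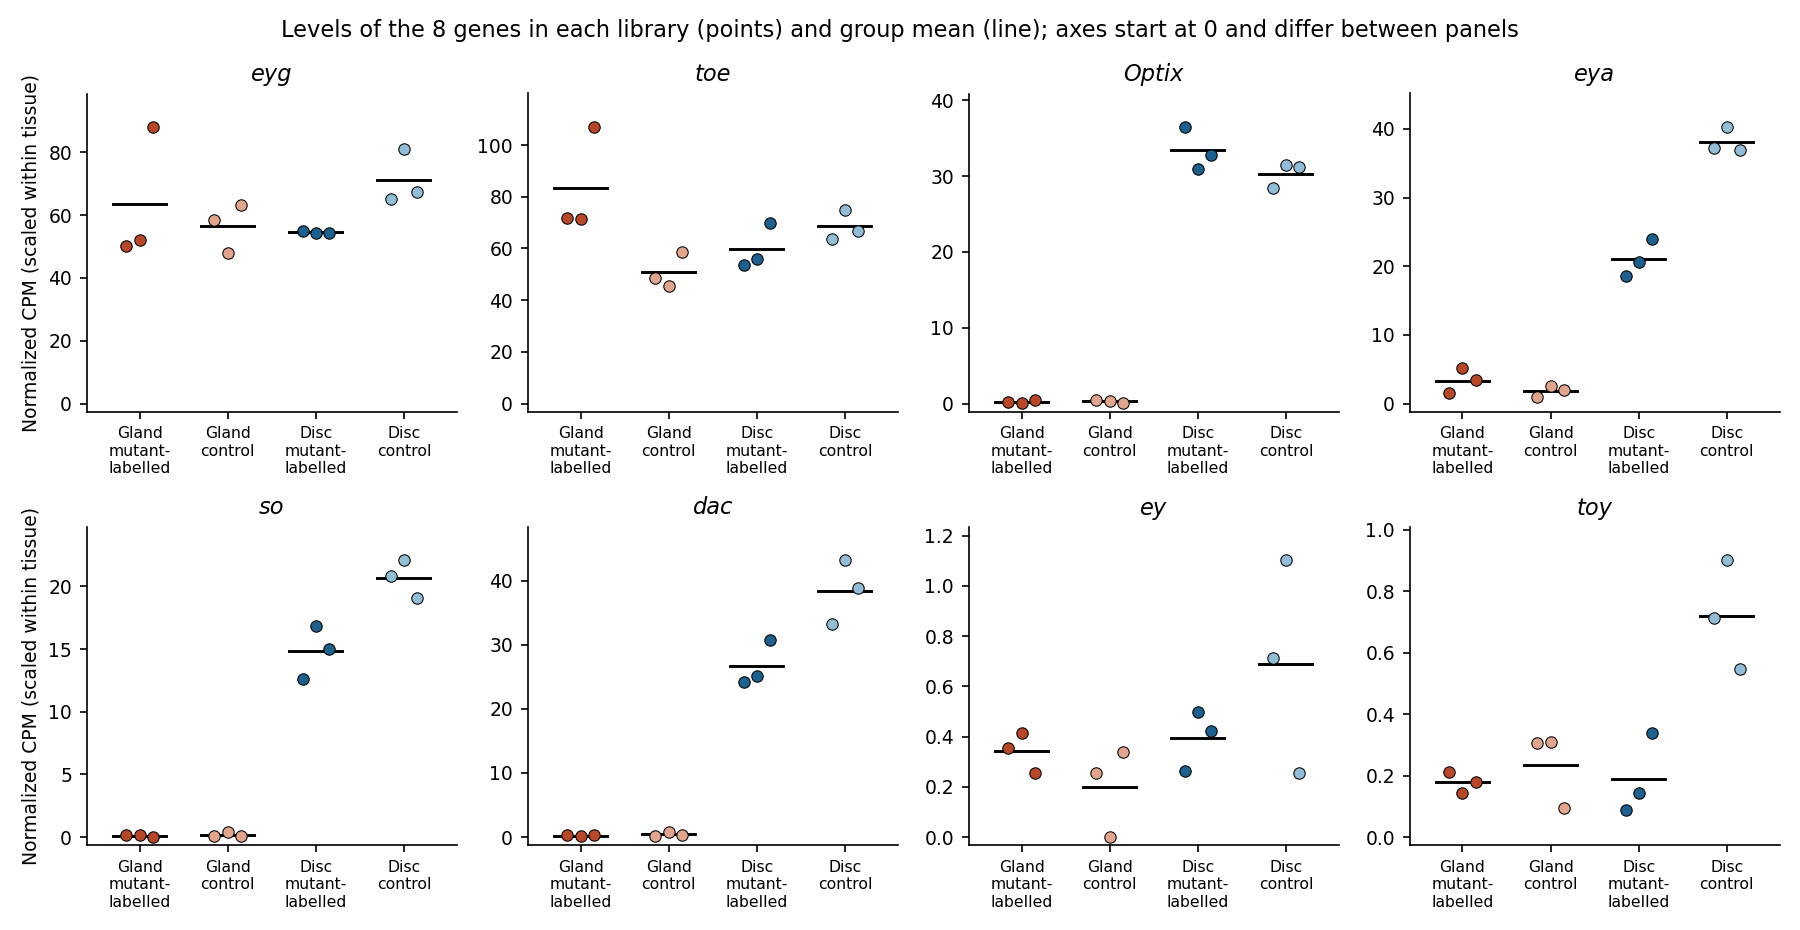
Normalized CPM (linear axes from 0, a different range in each panel) of the 8 retinal determination genes, by tissue with mutant-labelled groups left of controls; points are the 3 libraries of a group and lines their mean. eya is separated between the disc groups (18.6 to 23.9 against 36.9 to 40.3 CPM), and so, dac and Optix are near 0 in glands.

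Optix encodes another homeodomain protein of the so family and helps to pattern the anterior wing pouch. It had 36.5, 31.0 and 32.8 CPM in mutant-labelled discs, against 28.4, 31.4 and 31.1 CPM in control discs. The groups overlapped, with the mutant-labelled libraries spread around and above the controls. Its log2 change was 0.14, with an interval of -0.063 to 0.34 (adjusted p = 0.274), which covers both no change and a small rise.

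eyg and toe encode Pax proteins and lie next to each other on chromosome arm 3L. eyg, required for the notum as well as for eye growth, had 54.9, 54.3 and 54.2 CPM in mutant-labelled discs, against 65.0, 81.1 and 67.2 CPM in control discs. The mutant-labelled libraries were almost equal to one another and all below the controls. eyg thus changed by -0.38 ± 0.090 on the log2 scale (adjusted p = 0.00941). toe had 53.7, 55.7 and 69.7 CPM in mutant-labelled discs, against 63.7, 75.0 and 66.7 CPM in control discs. Mutant-labelled library 3 lay among the controls, so the groups overlapped. The log2 change of toe was -0.20 with an interval of -0.44 to 0.043 (adjusted p = 0.193), and without disc mutant library 3 it was -0.32 (adjusted p = 0.0231) and was called.

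ey and toy, the Pax6 genes at the head of the eye cascade, were barely detected in discs. toy had 2, 4 and 8 counts in mutant-labelled discs (0.0874, 0.142 and 0.338 CPM), against 16, 18 and 15 counts in control discs (0.715, 0.901 and 0.547 CPM). Every mutant-labelled library was below every control, and 1 of them was under the floor of 3 counts. The log2 change was -1.89 ± 0.54 (adjusted p = 0.0216), and it was not called without disc control library 2 (0.0822), disc mutant library 1 (0.0735) or disc mutant library 2 (0.0860). ey averaged 0.394 ± 0.121 CPM in mutant-labelled discs and 0.691 ± 0.424 CPM in control discs. Its groups overlapped, one control library being the lowest of the 6, and the log2 change of -0.74 had an adjusted p of 0.338.

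These disc calls were not made when all 12 libraries were fitted together, although the changes were of the same size. The biological coefficient of variation was 0.102 in discs, 0.292 in glands and 0.219 with all 12 libraries together, and in the edgeR fit of all 12 libraries 0 of the 8 members were called in discs (eya -0.85, adjusted p = 0.186). That fit also tested more genes, 10185, and used other scaling factors, and the cause of the loss was not tested. The log2 changes there were -0.51 for dac and -0.37 for eyg. In that fit 2 members, eya and toy, had an unadjusted p under 0.05, and 1032 genes were called in all.

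In salivary glands, no member was called in either direction, and toe came nearest to the threshold. Of the 7 members that passed the filter (so did not), 0 were called by edgeR's quasi-likelihood test, where 13.2% of the 9441 genes tested were called, 7.26% as higher and 5.91% as lower. limma-voom also called 0 and DESeq2 called 1, toe, which was also the 1 member with an unadjusted p under 0.05. The groups of 1 of the 7 members, toe, did not overlap, against 32.0% of all genes tested, 17.0% with the mutant-labelled group higher. Scaling by library totals in place of TMM factors moves the median of all genes by -0.11 in the gland comparison, by 0.17 in the difference of the changes, and by 1.498 and 1.33 on the log2 scale for discs against glands in mutant-labelled and control libraries.

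toe had 71.8, 71.4 and 107 CPM in mutant-labelled glands, against 48.4, 45.6 and 58.8 CPM in control glands. All 3 mutant-labelled libraries were above all 3 controls, with mutant-labelled library 3 far above the other two. The log2 change was 0.71 ± 0.22 with an interval of 0.20 to 1.22, and its adjusted p was 0.0749 by edgeR's quasi-likelihood test over all genes. DESeq2 gave an adjusted p of 0.0271 and the fit of all 12 libraries 0.00538, and over all alternatives it ranged from 0.00538 to 0.186.

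eyg, its neighbour, had 50.3, 52.0 and 88.2 CPM in mutant-labelled glands, against 58.3, 47.9 and 63.2 CPM in control glands. These groups overlapped, and mutant-labelled library 3 again stood highest. The log2 change was 0.17 (adjusted p = 0.727), and it was -0.13 without gland mutant library 3.

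Set against each other within a library, the neighbours differed between the gland groups. The ratio of toe to eyg counts was 1.43, 1.37 and 1.21 in mutant-labelled glands, against 0.830, 0.953 and 0.929 in control glands. The groups lay clear of each other, with means of 1.34 ± 0.111 in mutant-labelled glands and 0.904 ± 0.0650 in control glands. The exact permutation p was 0.1, the smallest possible with 3 against 3 (0.133 adjusted over the 4 ratios compared). In discs the ratio was 0.979, 1.03 and 1.29 in mutant-labelled libraries, against 0.980, 0.925 and 0.992 in control libraries. There the groups overlapped and the exact permutation p was 0.3.

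**Figure D2:**
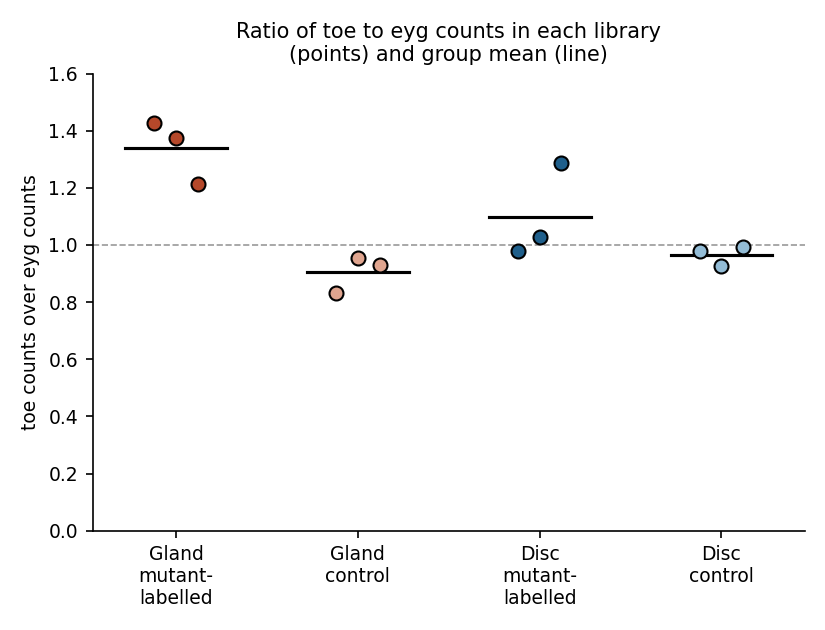
Ratio of toe to eyg counts in each library, by tissue and label, with mutant-labelled libraries left of controls and lines at group means. Mutant-labelled glands lie at 1.21 to 1.43 and control glands at 0.830 to 0.953, while the disc groups overlap.

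eya had 1.47, 5.11 and 3.39 CPM in mutant-labelled glands, against 0.968, 2.57 and 2.04 CPM in control glands. The groups overlapped and each spread widely. Its log2 change was 0.83 (adjusted p = 0.342). The remaining members were low, in some libraries at or under the floor and in others above it. Optix ranged from 0.0720 to 0.408 CPM in mutant-labelled glands and from 0.0756 to 0.510 CPM in control glands. dac ranged from 0.144 to 0.301 CPM in mutant-labelled glands and from 0.153 to 0.822 CPM in control glands. so had 0.142, 0.180 and 0 CPM in mutant-labelled glands and 0.102, 0.411 and 0.0756 CPM in control glands. ey and toy stayed at or under 0.414 CPM in every gland library, and differences at this level were not detectable at this depth.

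The change in toe differed between the tissues, in a call that did not hold in every fit. In the fit of all 12 libraries, the change in discs minus the change in glands was -0.98 ± 0.24 on the log2 scale for toe (95% interval -1.51 to -0.45, adjusted p = 0.0233, edgeR's quasi-likelihood test). It was the 1 member of 8 called for this difference, where 10.1% of the 10185 genes tested were called, 5.62% with a negative and 4.47% with a positive difference. The call was lost in 6 of the 12 fits that left out 1 library. Without gland control library 1 the adjusted p was 0.0539, without disc control libraries 1, 2 and 3 it was 0.0533, 0.0790 and 0.0663, and without disc mutant libraries 1 and 2 it was 0.0838 and 0.0817. For eya the difference was larger, -1.75 ± 0.54, with an adjusted p of 0.0609. It was called by DESeq2 (0.0172), with no filter on low counts (0.0334), without gland control library 2 (0.0354) and without gland mutant library 1 (0.00816), and the adjusted p ranged from 0.00816 to 0.148 over all alternatives. The difference for eyg was -0.62 (adjusted p = 0.175).

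**Figure D3:**
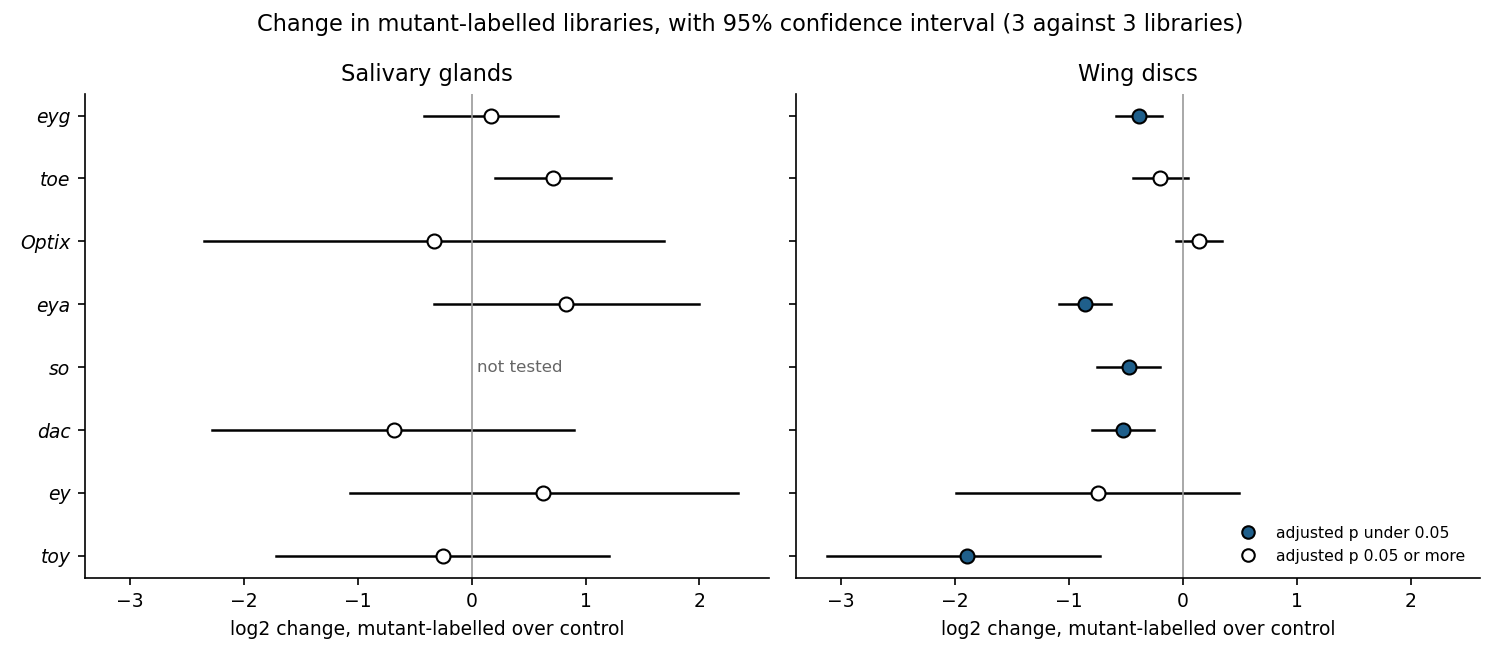
Log2 change of mutant-labelled over control libraries for each retinal determination gene, with 95% intervals, in glands and in discs; filled points have an adjusted p under 0.05. Intervals of eya, so, dac, eyg and toy lie below 0 in discs, and in glands no point is filled although the interval of toe, 0.20 to 1.22, lies above 0.

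Between the tissues, so, dac and Optix were found almost wholly in discs, eya was higher in discs, and eyg and toe were well expressed in both. With TMM factors over all 12 libraries, 4 of the 8 members were called higher and 2 lower in discs than in glands in mutant-labelled libraries, where 41.1% of the genes tested were called higher and 39.9% lower (81.0% in all). In control libraries the counts were again 4 higher and 2 lower, where 40.3% of the genes tested were called higher and 38.7% lower (79.0% in all). These counts hold for TMM factors. On library totals they were 4 higher and 1 lower (toe) in mutant-labelled libraries and 6 higher and 0 lower in control libraries, where toe was called higher. so, dac and Optix passed the filter of this fit through discs alone. Tissue and the repeated mRNA enrichment of the gland libraries cannot be told apart, and in whole tissue fewer cells of a type cannot be told apart from less RNA per cell.

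On library totals, gland levels as a share of disc levels were 0.729% for so, 0.872% for dac and 0.616% for Optix in mutant-labelled libraries, and 1.02% for so, 1.14% for dac and 1.01% for Optix in control libraries. The summed wing disc markers stood at 2.05% in mutant-labelled libraries and 3.01% in control libraries. That sum is carried by sd, at 7.28% in mutant-labelled and 11.1% in control libraries, and ap, at 2.26% and 1.36%. The other 8 wing disc markers lay at 0.528% to 0.778% in mutant-labelled libraries and 0.971% to 1.70% in control libraries, close to the shares of so, dac and Optix. eya was at 15.5% in mutant-labelled libraries and 5.11% in control libraries, above these 8 markers in both. eyg was at 112% in mutant-labelled libraries and 81.5% in control libraries, and toe at 134% in mutant-labelled libraries and 76.5% in control libraries.

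With TMM factors over 12 libraries, eyg was lower in discs than in glands by a log2 difference of -1.67 in mutant-labelled and -1.04 in control libraries, but on library totals the differences were -0.16 (adjusted p = 0.392) in mutant-labelled and 0.29 (adjusted p = 0.125) in control libraries. For toe the differences were -1.93 in mutant-labelled and -0.95 in control libraries with TMM factors, and -0.43 in mutant-labelled and 0.39 in control libraries on library totals, the last in the opposite direction and called as well (adjusted p = 0.0378). Both genes therefore stood below the median gene, relative to glands, on either scale, the median itself being at 1.54 in mutant-labelled and 1.42 in control libraries on library totals. eya was higher in discs by 1.201 in mutant-labelled and 2.95 in control libraries with TMM factors, and by 2.69 in mutant-labelled and 4.29 in control libraries on library totals.

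**Figure D4:**
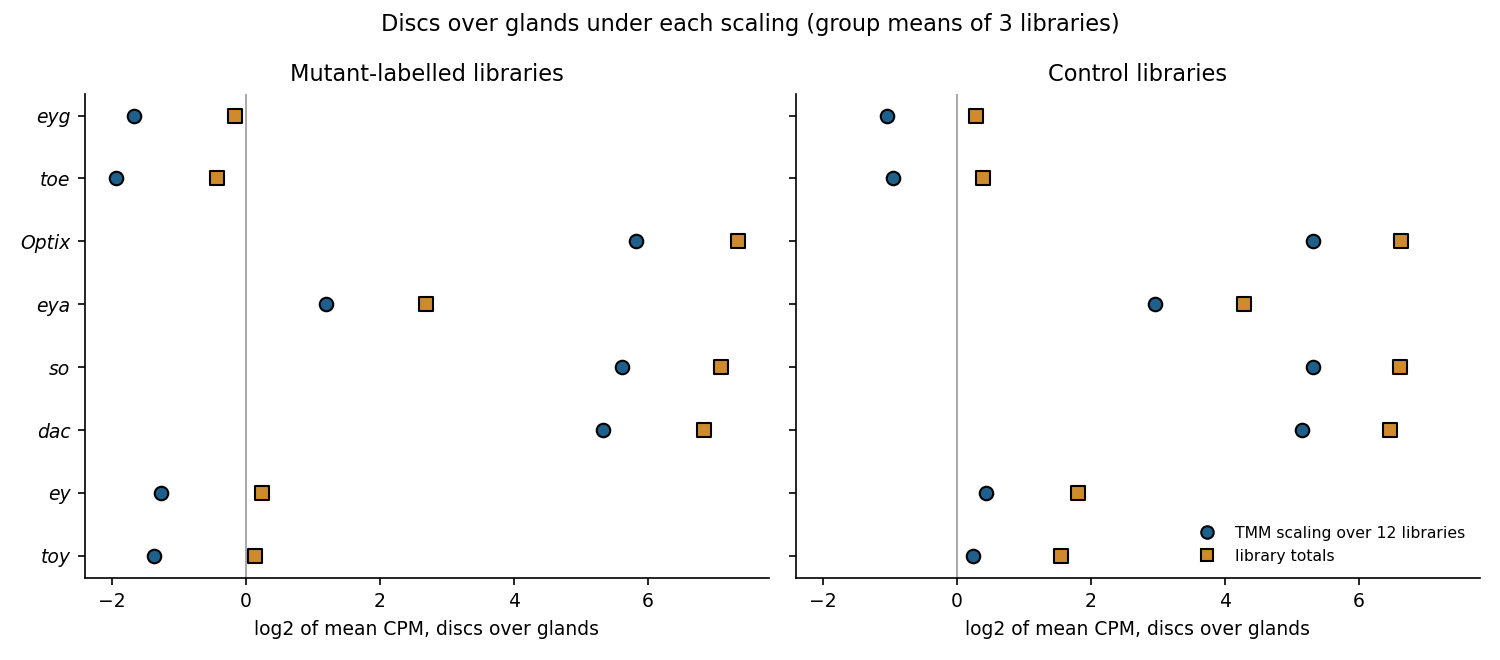
Log2 of mean CPM in discs over mean CPM in glands for the 8 retinal determination genes, in mutant-labelled and control libraries, with circles for TMM factors over 12 libraries and squares for library totals. so, dac and Optix lie far above 0 on both scales, while eyg and toe in control libraries are below 0 with TMM factors and above 0 on library totals.

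Per kilobase of exon, toe led the set in all 4 groups. In mutant-labelled discs its level was 24.9 CPM per kb, followed by eyg at 17.3, Optix at 11.9, eya at 5.70, dac at 5.36 and so at 5.32 CPM per kb. The libraries of the last 3 overlapped, so their order is not settled. In control discs the levels were 28.5 for toe, 22.6 for eyg, 10.8 for Optix, 10.3 for eya, 7.71 for dac and 7.42 CPM per kb for so, with overlap between Optix and eya and between dac and so. eya thus stood level with Optix in control discs and with dac and so in mutant-labelled discs. In mutant-labelled glands toe had 34.8, eyg 20.2 and eya 0.901 CPM per kb. In control glands toe had 21.2, eyg 17.9 and eya 0.504 CPM per kb, and there toe and eyg overlapped.

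The members lie on 4 chromosome arms. In BDGP6, toe (3L, 12422510 to 12432668) and eyg (3L, 12462537 to 12468021) are both on the minus strand, separated by 29868 bases with no annotated gene between them. ey (697689 to 721173) and toy (989725 to 1007922) are on chromosome 4, which is largely heterochromatic, eya (6527447 to 6546976) and dac (16466512 to 16485998) on 2L, and so (7419350 to 7434872) and Optix (8031283 to 8042529) on 2R. No exon of a member was overlapped by another annotated gene. Of the 18 nearest neighbours that are not members, 0 of the 8 tested in glands and 0 of the 9 tested in discs were called by edgeR. Of all genes tested, 13.2% were called in glands and 31.3% in discs, and so few neighbours allow no comparison with these shares. DESeq2 called 1 in glands and 0 in discs. At an unadjusted p under 0.05 by edgeR there were 2 in discs, myo (log2 change -0.20) and bt (-0.85), on either side of ey. In glands there were 3, myo (-0.58), bt (-1.47) and fuss (0.50), which lies beside toy. ArfGAP1, on the other side of toe, had 105 ± 3.49 CPM in mutant-labelled glands and 123 ± 8.34 CPM in control glands (log2 change -0.24, adjusted p = 0.422). On chromosome 4 as a whole, 13 of 87 genes tested in discs were called higher and 19 lower (36.8%, beside 31.3% of all genes), and 11 of 86 in glands were called higher and 12 lower (26.7%, beside 13.2% of all genes).

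Genes that regulate the retinal network or work beside it were called in discs about as often as genes at large, with most of the calls lower. Of 24 cofactors and regulators, all of them tested, 1 was called higher and 7 lower (33.3%, near the 31.3% of all genes). Of all genes tested, 16.0% were called higher and 15.2% lower. The median log2 change of the list was -0.17, and DESeq2 called 1 higher and 5 lower. The ligands wg and hh, which pattern discs, had log2 changes of -0.42 and -0.31, and the Notch ligands Delta and Ser -0.32 and -0.18, whereas the ligand genes dpp, spi, upd1 and upd2 were not called (-0.17, 0.090, 0.13 and 0.088). wg stood at 87.9, 98.3 and 102 CPM in mutant-labelled discs, against 123, 131 and 132 CPM in control discs, and its groups did not overlap. Egfr, the EGF receptor, had a log2 change of -0.31. dan, a nuclear factor of early eye development, and the cytokine gene upd3 fell by 1.53 and 1.19 on the log2 scale, with 0.184 CPM in mutant-labelled and 0.551 CPM in control discs for dan and 0.500 and 1.16 CPM for upd3. dan had passed the low-count filter through its control libraries alone, and DESeq2 called neither (adjusted p = 0.104 for dan and 0.0590 for upd3). fng, a glycosyltransferase that modifies Notch, was the 1 member of the list that rose, by 0.51. In glands 0 of the 19 tested were called by edgeR or limma-voom, DESeq2 called 1, and 3 had an unadjusted p under 0.05. Of all genes tested in glands, edgeR called 13.2%.

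Genes that act later, when eye neurons form, ranged widely in level in discs. sca, a gene of neural precursors, averaged 69.7 CPM in mutant-labelled and 77.5 CPM in control discs, while ro and lz were near the floor. Of 8 of these genes tested in discs, 0 were called higher and 3 lower (37.5%, beside 31.3% of all genes called and 15.2% called lower). gl, a zinc-finger factor needed for photoreceptor development, had 0.437, 0.178 and 0.169 CPM in mutant-labelled discs, against 1.03, 1.65 and 0.656 CPM in control discs. The groups did not overlap, and the log2 change was -2.07 (adjusted p = 0.0138), but gl reached the cutoff of the low-count filter in only 1 mutant-labelled library and in all 3 controls, so it was tested through the group where it is high. sens and B-H1, which also specify sensory organs of the notum and wing, had log2 changes of -0.58 and -0.55. Of 6 phototransduction genes tested, 2 were called higher (33.3%, beside 31.3% of all genes called and 16.0% called higher). These were Rh5, a rhodopsin gene, at 0.91, and norpA, a phospholipase C gene, at 0.38. DESeq2 did not call Rh5 (adjusted p = 0.0763). Of the other genes of the Pax and so families, 2 were tested in each tissue, Poxn and sv in discs and Poxn and Poxm in glands, and 0 were called by edgeR, DESeq2 or limma-voom or had an unadjusted p under 0.05. In glands 1 of 3 eye neuron genes tested was called higher (33.3%, beside 13.2% of all genes called and 7.26% called higher). This was the neuronal gene elav, with 8.81, 6.71 and 6.69 CPM in mutant-labelled glands and 0.510, 2.00 and 1.21 CPM in control glands.

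The notum, which forms from the dorsal part of the wing disc, is where eyg acts in this tissue. Of 8 notum genes, 0 were called higher and 4 lower in discs (50.0%, beside 31.3% of all genes called and 15.2% called lower), with a median log2 change of -0.26. These were the transcription factor genes tup at -0.54, mirr at -0.37, ara at -0.29 and sr at -0.95. sr, which marks sites of muscle attachment, had 9.53, 9.58 and 17.6 CPM in mutant-labelled discs, against 19.5, 27.2 and 24.0 CPM in control discs. Its groups lay apart. In glands 0 of the 7 notum genes tested were called by edgeR, DESeq2 or limma-voom, and 0 had an unadjusted p under 0.05. The share of all genes called there by edgeR was 13.2%.

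**Figure D5:**
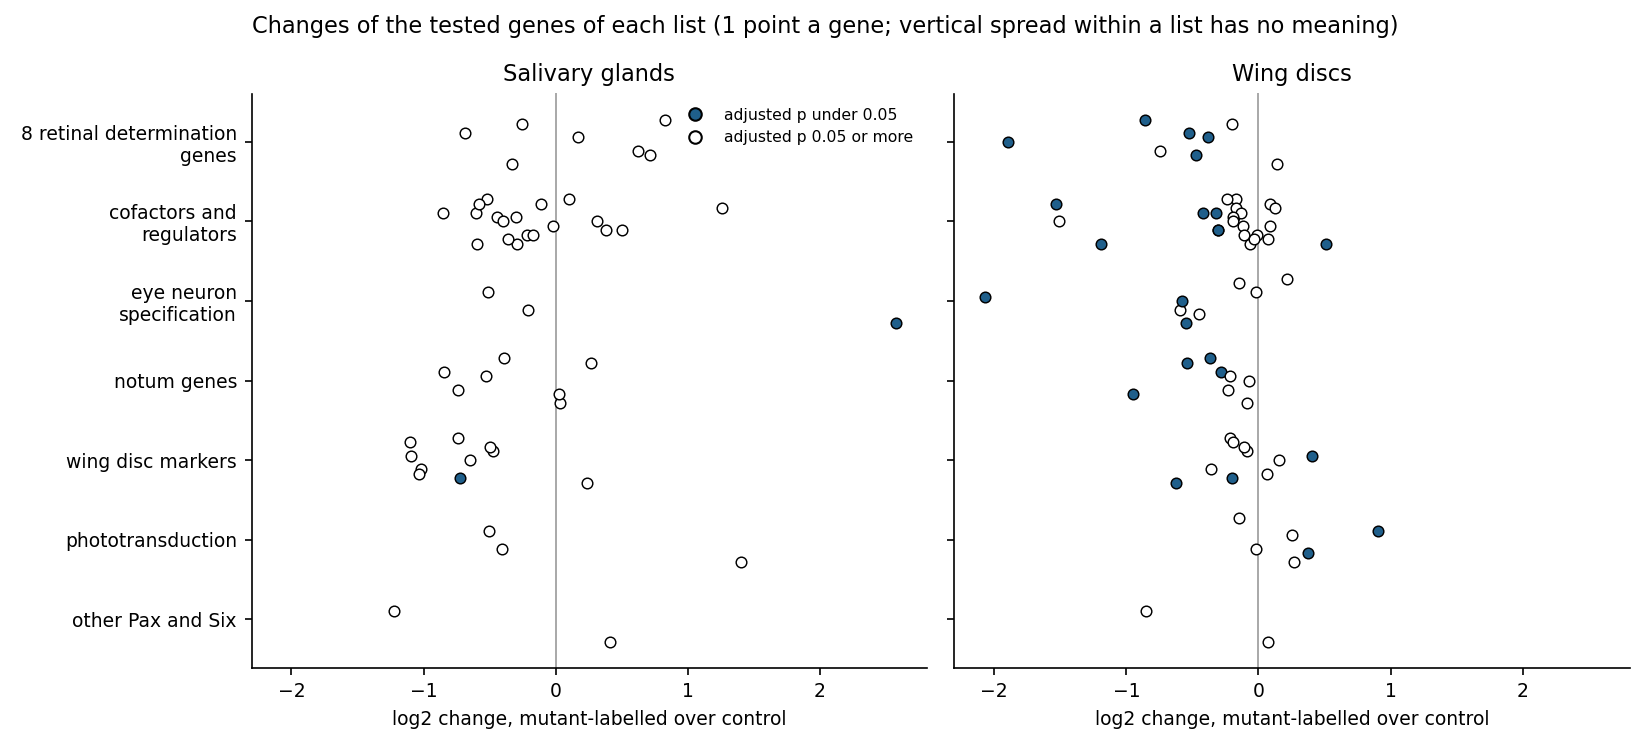
Log2 change of mutant-labelled over control libraries for each tested gene of 7 lists, in glands and in discs, with filled points for an adjusted p under 0.05. In discs the called genes of the regulator, eye neuron and notum lists lie below 0, down to -2.07 for gl, except fng at 0.51.

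Summed markers of other cells differed between the groups for some cell types and overlapped for others. In discs the 6 hemocyte markers summed to 10.2 to 15.6 CPM in mutant-labelled libraries and 28.6 to 42.5 CPM in controls. Of these 6, 3 were called lower, and NimC1 among them passed the low-count filter through its control libraries alone. Of all genes tested in discs, 31.3% were called, 15.2% as lower and 16.0% as higher. Hemocytes are the blood cells that attach to larval tissue. The 4 leg and haltere disc markers summed to 154 to 190 CPM in mutant-labelled discs and 200 to 209 CPM in control discs, with Dll, a limb patterning gene, lower. Glia markers summed to 12.3 to 22.1 CPM in mutant-labelled discs and 9.02 to 11.3 CPM in control discs. These sums did not overlap between the groups, but the glia sum is nearly all moody, which was called higher, while repo stood at 0.521 CPM in mutant-labelled and 0.514 CPM in control discs and Eaat1 at 0.210 and 0.831 CPM. The 10 wing disc markers summed to 2253 to 2557 CPM in mutant-labelled discs and 2655 to 2776 CPM in control discs, with ap and sd lower and pdm2 higher. Myoblast markers summed to 185 to 234 CPM in mutant-labelled discs and 225 to 241 CPM in control discs, with 1 of 5, zfh1, lower. Neuron markers summed to 28.4 to 34.0 CPM in mutant-labelled discs and 20.2 to 28.2 CPM in control discs, with VGlut at 0 in the mutant-labelled and ChAT at 0 in the control libraries. That sum is mostly elav, at 24.9 CPM in mutant-labelled and 21.4 CPM in control discs, which was not called. Of the 5 tested, onecut was called higher (log2 change 1.99) and the other 4 were not called. Fat body, tracheal and salivary gland marker sums overlapped between the disc groups. Of those markers, apolpp, emp and serp were called higher and dysf and CrebA lower.

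In glands the 7 fat body markers summed to 25482 to 33957 CPM in mutant-labelled libraries and 12602 to 19217 CPM in controls, with 3 higher. Of all genes tested in glands, 13.2% were called, 7.26% as higher and 5.91% as lower. The 10 wing disc markers summed to 47.7 to 57.6 CPM in mutant-labelled glands and 74.2 to 86.0 CPM in control glands, with sd lower. That sum is mostly sd, at 31.7 CPM in mutant-labelled and 52.4 CPM in control glands, and the other 9 markers were not called. Glia markers summed, in the same order, to 17.7 to 25.0 CPM and 8.01 to 15.3 CPM, with Eaat1 higher. moody, at 10.9 and 7.46 CPM, was not called, and repo, at 0.117 and 0.114 CPM, was not tested. Salivary gland markers summed to 293727 to 305040 CPM and 250263 to 278917 CPM, with 0 called. Hemocyte, myoblast and leg and haltere disc marker sums overlapped between the gland groups. The 8 neuron markers summed to 37.4 to 56.3 CPM in mutant-labelled glands and 16.5 to 26.9 CPM in control glands. Of the 5 tested, 3 were called higher (elav, Syt1 and onecut) and 1 lower (para). onecut passed the low-count filter through its mutant-labelled libraries alone and para through its controls alone. The sum is mostly Syt1, at 35.6 CPM in mutant-labelled and 17.9 CPM in control glands. brp averaged 0.507 CPM in mutant-labelled and 1.52 CPM in control glands, and DESeq2 called it lower (adjusted p = 0.0445). The 7 tracheal markers summed to 62.4 to 76.6 CPM in mutant-labelled glands and 142 to 184 CPM in control glands. Of these, 3 were called lower (emp, uif and dysf), and dysf passed the low-count filter through its control libraries alone. The part of these cells in the levels of the retinal determination genes was not tested.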

How the data were processed

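Polyadenylated RNA of salivary glands and wing discs was sequenced in 12 libraries. The gene tables deposited by the authors hold raw counts per gene, and the submitters' processing notes name cutadapt, HISAT2, featureCounts and the builds BDGP6 and dm6, with versions, order and strand setting not given in the sources used here. Counts of transposable elements were not used here. Gene names came from the BDGP6 annotation (release 115), which held 17710 of 17807 IDs.

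Genes were kept by filterByExpr (minimum count 10), scaled by TMM factors and compared by edgeR's quasi-likelihood F test (edgeR 4.0.16, R 4.3.3), taking as called an adjusted p under 0.05 (Benjamini-Hochberg, across every gene of a fit). Each tissue was fitted alone, and the difference of the changes and the tissues were compared in a fit of all 12 libraries. SE is the log2 change divided by the square root of F. Ratios were compared by two-sided exact permutation tests. The tests were checked on simulated counts. limma 3.58.1, DESeq2 1.42.0, other scalings, no filter, a replicate block and each library left out were alternatives, and library totals without a factor were added after seeing the data.

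The genes and lists were chosen with earlier results of these data known. Named are all 8 genes in every library, from each list up to 4 tested genes with the lowest p per tissue and any other needed to say what moved, and the 2 genes most alike. The nearest gene on each side of a member was looked up, and only some of these are named.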

Additional observations from a re-analysis of the deposited data

Results flagged for a closer look

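The change of toe differed between the tissues: in discs minus in glands it was -0.98 ± 0.24 on the log2 scale (adjusted p = 0.0233, interaction term of edgeR's quasi-likelihood test). The change was -0.20 in discs, where 2 of 3 mutant-labelled libraries lay below all controls, and 0.71 in glands, where 3 of 3 mutant-labelled libraries lay above all controls. The call was lost in 6 of the 12 fits that left out 1 library, with adjusted p-values up to 0.0838.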

How the results depend on the processing

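Depth limits ey and toy in both tissues and so, dac and Optix in glands, where most libraries held few counts. Of 690 values of the members under alternatives, 628 kept direction and side of the threshold. In discs, the joint fit of 12 libraries called 1032 genes and 0 members, and leaving out 1 library gave 1883 to 2984 genes and 3 to 6 members, both lowest without disc control 2. In glands, the joint fit called 2360 genes and 1 member, DESeq2 1 member, and leaving out 1 library gave 705 to 1512 genes (710 and 726 without gland controls 1 and 3, 798 and 705 without gland mutants 1 and 2) and 0 members. For the difference of the changes, DESeq2 called 1574 genes and 2 members, no filter 2 members, and leaving out 1 library gave 662 to 1366 genes (676 and 662 without disc controls 2 and 3, 667 without disc mutant 2) and 0 to 2 members. Whether the replicate numbers pair the libraries is not settled. Same-numbered libraries correlated at 0.0091, 0.30 and 0.31 in glands and 0.093, -0.075 and 0.12 in discs. Across tissues they correlated at 0.089, 0.027 and 0.12 in mutant-labelled and -0.059, -0.031 and -0.048 in control libraries. The same-numbered library was the best match for some libraries and not for others. With a replicate block, 1570 genes and 1 member (toe, adjusted p = 0.0356) were called in glands, 3007 genes and 5 members in discs, and 1050 genes and 2 members (toe and eya) for the difference. The cause of these shifts was not tested.

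Directions that turned were all of uncalled values except toe and eyg between tissues on library totals in controls (0.39 and 0.29). On library totals they were ey at 0.24 and toy at 0.12 between tissues in mutant-labelled libraries, and so at 0.041 in the difference of the changes. In that difference, so was 0.40 with limma-voom and 0.38 with tissue weights, and dac was -0.19 with either and -0.017 with the replicate block. With 1 library left out, toy in glands ranged from -0.78 to 0.053, Optix from -1.08 to 0.36, dac from -1.03 to 0.19 and eyg from -0.13 to 0.32. The difference of the changes ranged from -1.05 to 0.53 for so, -0.38 to 1.04 for Optix and -0.75 to 0.40 for dac, and discs against glands in controls from -0.25 to 1.05 for ey and -0.13 to 0.70 for toy.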

Other observations

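For each member averaging at least 1 CPM in some group, the genes whose log2 CPM ran most alike over the 12 libraries were sought among 9502 genes. All 12 libraries share the step between the tissues, which carries most of each correlation, so the values are a description. For eya these were CG44838 (Pearson r = 0.975) and Loxl1 (0.968). CG44838 averaged 67.2 CPM in mutant-labelled and 86.8 CPM in control discs, and 8.89 CPM in mutant-labelled and 5.27 CPM in control glands. For dac they were T48 (0.997), which helps cells to fold inward at gastrulation, and grn (0.996), which encodes a GATA factor. T48 averaged 41.4 CPM in mutant-labelled and 61.8 CPM in control discs. For so they were Rbm13 (0.998) and msd5 (0.997), and for Optix the kinetochore gene Spc25 (0.995) and CG8170 (0.992).

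For eyg the most alike were CG11898 (0.992) and rdog (0.987), which are not its neighbours, and for toe RhoGAP92B (0.991) and Nak (0.989), a kinase gene. RhoGAP92B averaged 148 CPM in mutant-labelled and 58.9 CPM in control glands, and 45.8 CPM in mutant-labelled and 48.1 CPM in control discs. Among the members themselves, so, dac and Optix correlated at 0.923 to 0.966 and eyg with toe at 0.954.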
